A study of Mus musculus with 16 samples.

Results

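Libraries of the cerebellum were used to see how the transcriptome of mice lacking acyl-CoA synthetase 6 (Acsl6-/-) differed between 2 and 18 months of age. The members are the 8 Acsl6-/- RNA-Seq libraries of a series of 16, 4 from young and 4 from aged mice, and they were chosen by genotype alone from the sample labels. The other 8 libraries, 4 from young and 4 from aged control mice, serve as the comparison. All mice were C57BL/6 females, and aged mice were left to age naturally. Acsl6-/- mice carry a global germline deletion made by breeding Acsl6 flox/flox mice to a CMV-Cre line. The controls are labelled WT in the sample titles, and whether they were littermates without Cre is not stated. All mice were fed the same chow, which lacked docosahexaenoic acid (DHA). Cerebellum was flash frozen and its RNA extracted with TRIzol, and poly(A) libraries were sequenced. The question this comparison addresses is which genes differ with age when ACSL6 is absent, and whether the same differences are seen in controls.

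ACSL6 joins coenzyme A to long polyunsaturated fatty acids, DHA above all, and so lets neurons keep them in membrane phospholipids. The cerebellar cortex is built of granule cells, which are the most numerous neurons of the brain and signal with glutamate, and of Purkinje cells, which carry its output, with Bergmann glia, oligodendrocytes and microglia around them. Microglia are the resident macrophages of the brain, and in aging rodents they are known for higher expression of complement, antigen presentation and interferon-induced genes.

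Values are normalized counts, that is, reads assigned to a gene divided by a size factor of the library. Differences are log2 fold changes of the normalized count + 1, 18 over 2 months, tested with limma over 17042 genes, and a gene is said to have risen or fallen where its Benjamini-Hochberg adjusted p was under 0.05. Sequencing depth in the 8 libraries was 18120742 to 23119179 reads assigned to genes, and the median correlation of a library with the others of its group was 0.987 to 0.992. Cerebellar markers were detected in every library, with a summed level of 166370 to 179970 normalized counts at 2 months and 146410 to 161780 at 18 months over 12 genes, whereas 8 detected forebrain markers summed to 5290 to 5964. Acsl6 transcript remained measurable in Acsl6-/- cerebellum with 2248, 2336, 2297 and 2290.4 normalized counts at 2 months and 2101, 2276, 2195 and 2140.0 at 18 months. The groups overlapped, the log2 fold change was -0.07 (SE 0.04, limma adjusted p = 0.155), and the two-sided exact permutation p was 0.0571, where 0.0286 is the smallest that 4 against 4 libraries can give. In controls Acsl6 averaged 6753 ± 309 (SD, n = 4) at 2 months and 5969.9 ± 112 at 18 months, above every Acsl6-/- library. Aged Acsl6-/- library 1 stood apart in Ttr, the transthyretin gene of choroid plexus, at 391, 279, 273 and 432 normalized counts at 2 months and 12123, 163, 389.7 and 331 at 18 months. Nothing in the sources used here states that libraries came from separate animals, so p-values measure the spread between these libraries only. The hour of tissue collection is not given either, and it cannot be told apart from age.

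Age was accompanied by differences in 23.2% of all genes tested in Acsl6-/- cerebellum. A total of 1981 genes rose (11.6%) and 1976 fell (11.6%), and the median log2 fold change over all genes was -0.00. Genes that rose did so by more: their median was 0.40, against -0.26 for genes that fell. More than a doubling, which is a log2 fold change above 1, was seen in 311 genes that rose, whereas 75 genes fell past -1, and past 2 and -2 there were 45 and 9 genes. In 3223 of the 3957 called genes (81.5%) the 4 aged libraries all lay above, or all below, the 4 young ones. Over all genes tested, 11.5% had all aged libraries above and 12.2% all aged libraries below. Counts of list members that rose or fell, given below, are to be read beside the 11.6% of all genes in each direction.

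Genes were ranked by log2 fold change among called genes with no overlap of the ages and a mean of 50 or more normalized counts in the higher group. Unnamed gene models and annotated pseudogenes were left out, so larger changes outside this rule are not listed. Within it, the 12 genes with the largest rise were led by complement and microglial genes. Clec7a, whose rise would place it second, is annotated as a polymorphic pseudogene, was left out of this ranking and is described with the microglial genes. C3, the central component of the complement cascade, stood at 9.77, 10.5, 6.17 and 9.62 normalized counts at 2 months and 297, 170.5, 175 and 155 at 18 months, a log2 fold change of 4.30 (SE 0.31, limma adjusted p = 4.26e-08). Every aged library was far above every young one, and aged library 1 was the highest. Itgax, which encodes the integrin CD11c of activated microglia, stood at 3.91, 5.23, 8.23 and 3.85 normalized counts at 2 months and 79.3, 56.8, 95.9 and 53.2 at 18 months, a log2 fold change of 3.53 (SE 0.28, limma adjusted p = 1.75e-07). C4b, a complement component made by glia, started from a higher level with 264, 347, 346 and 313 normalized counts at 2 months and 2547, 2050.5, 1834 and 1779 at 18 months, a log2 fold change of 2.68 (SE 0.13, limma adjusted p = 8.75e-10). The ages do not overlap in any gene of this ranking, since the rule required it. Lyz2, the lysozyme of myeloid cells, rose by 2.64 and Adgre1, which encodes the macrophage marker F4/80, by 2.22. Gpnmb, a glycoprotein of lysosome-rich phagocytes, had 43.99, 39.7, 52.5 and 50.02 normalized counts at 2 months and 243, 239.6, 414 and 192 at 18 months, a log2 fold change of 2.47 (SE 0.26, limma adjusted p = 3.05e-06). The remaining genes were H2-Q7 (2.60) and H2-Q6 (2.60), nonclassical major histocompatibility complex (MHC) class I genes with near-identical copies whose reads could be shared, Nlrc5 (2.44), the transactivator of MHC class I genes, the interferon-induced Gbp6 (2.45) and Ifit3 (2.32), which also have close relatives, and Tcap (2.26), known as a sarcomere protein of striated muscle.

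By the same rule, the 12 genes with the largest fall were more varied in function. Mkrn3, an imprinted gene encoding a zinc-finger protein, stood at 110.5, 120.3, 131 and 115 normalized counts at 2 months and 25.4, 15.6, 27.3 and 23.998 at 18 months, a log2 fold change of -2.35 (SE 0.22, limma adjusted p = 9.05e-07). Rasal1, a GTPase-activating protein that turns off Ras, stood at 561, 455, 584 and 518 normalized counts at 2 months and 149, 111, 107 and 136 at 18 months, a log2 fold change of -2.07 (SE 0.15, limma adjusted p = 2.78e-08). Ramp3, a partner protein of the calcitonin receptor family, stood at 309, 298, 331 and 349 normalized counts at 2 months and 124, 127, 119 and 114 at 18 months, a log2 fold change of -1.40 (SE 0.09, limma adjusted p = 8.44e-09). In each of these genes the lowest young library was more than double the highest aged one. Ntf3, which encodes neurotrophin-3, fell by 1.88 on the log2 scale, with 110.5, 139, 165 and 142 normalized counts at 2 months and 41.1, 35.7, 37.8 and 32.3 at 18 months. Zfp57 (-1.65), a zinc-finger protein that maintains imprints, Egr4 (-1.48), an activity-induced transcription factor, and Adamts18 (-1.63), a secreted metalloprotease, fell as well, as did Mybpc3 (-1.61), known as a myosin-binding protein of heart muscle, and Loxhd1 (-2.09), known from inner ear hair cells. All 24 genes moved in the same direction in controls and were called there, and none was called for the difference of the age effects between genotypes.

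**Figure D1:**
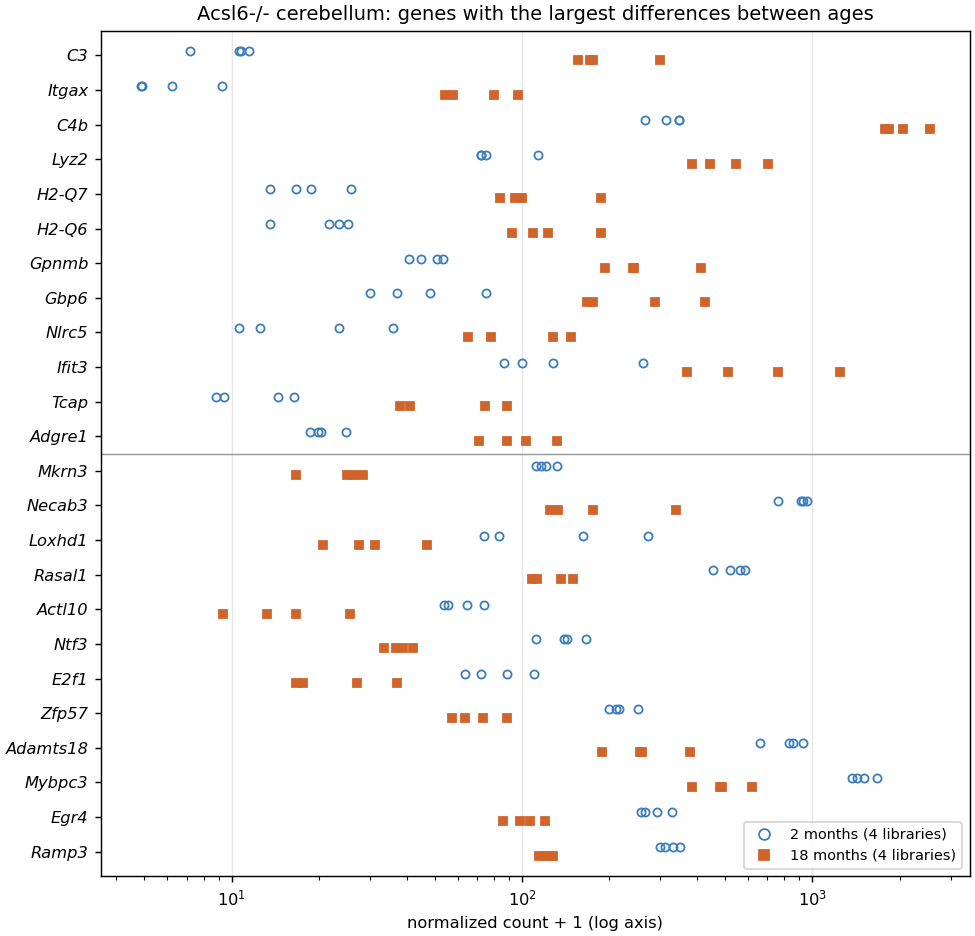
Normalized count + 1 (log axis) of the 12 protein-coding genes with the largest rise (above the line) and the 12 with the largest fall (below it), as ranked in the text, between 2 months (open circles) and 18 months (filled squares) in Acsl6-/- cerebellum, 1 point per library. Young and aged libraries are separated in all 24 genes because the ranking required it. C3 goes from 6.17 to 10.5 at 2 months to 155 to 297 at 18 months.

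Necab3, a neuronal calcium-binding protein, stood at 761, 915, 957 and 931 normalized counts at 2 months and 175, 124, 338 and 133 at 18 months, a log2 fold change of -2.32 (SE 0.30, limma adjusted p = 2.8e-05), and several neighbours on chromosome 2 fell as well. Necab3 lies at chr2:154544399-154558890 (GRCm38, minus strand). Inside it, on the opposite strand, lie Actl10, an actin-like gene that fell (-2.02), and 1700003F12Rik (-1.34), and beside it lies E2f1 (-1.81), a transcription factor of S-phase entry. The strand used in counting is not stated, so reads of Necab3, Actl10 and 1700003F12Rik cannot be told apart. These neighbours were looked up after the values were seen. Farther out, Cdk5rap1, a tRNA-modifying enzyme, rose (0.70) and Raly, an RNA-binding protein, fell (-0.20), whereas Cbfa2t2, Pxmp4, Zfp341 and Chmp4b did not pass the test.

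Microglial genes rose almost as a body. Of 27 homeostatic microglia genes 24 rose and none fell, with a median log2 fold change of 1.02 against -0.00 over all genes. Trem2, a lipid-sensing receptor, stood at 61.6, 61.7, 58.7 and 37.5 normalized counts at 2 months and 233, 152, 254 and 171 at 18 months, a log2 fold change of 1.86 (SE 0.18, limma adjusted p = 1.57e-06). All its aged libraries exceeded all young ones. The defining markers Tmem119 (1.12), Cx3cr1 (1.02), P2ry12 (0.69) and Csf1r (0.72) rose as well, and so did Itgam (1.65), which encodes CD11b. Aif1, the gene of the microglial marker IBA1, was low in counts with 18.6, 25.1, 16.5 and 1.92 normalized counts at 2 months and 46.97, 35.7, 29.03 and 29.2 at 18 months, and its log2 fold change of 1.48 (SE 0.49, limma adjusted p = 0.0362) lost the threshold under 6 alternatives. In bulk tissue, more cells of a type and more RNA per cell cannot be told apart, nor fewer cells from less RNA.

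Genes of the disease-associated microglial state rose too. Of 28, 23 rose and 1 fell, with a median of 1.44. Clec7a, the receptor dectin-1, showed 4.89, 12.5, 5.15 and 1.92 normalized counts at 2 months and 114, 83.6, 111 and 73.04 at 18 months, a log2 fold change of 3.94 (SE 0.33, limma adjusted p = 2.83e-07). Its transcript was barely detected in young libraries and well above that in all aged ones. Mpeg1, a pore-forming protein of macrophages, rose by 1.80. The member that fell was Ctsl (-0.18), a lysosomal protease. Among 61 lysosomal genes 20 rose and 6 fell, and the riser with the smallest p was Ctss (1.56), the cathepsin of antigen-presenting cells.

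Complement genes rose more often than they fell. Of 21 measured, 11 rose and 1 fell, with a median of 0.46. C1qa, which encodes a chain of the initiating C1q complex, stood at 210.2, 249, 220.2 and 223 normalized counts at 2 months and 928, 666, 830.5 and 624 at 18 months, a log2 fold change of 1.74 (SE 0.11, limma adjusted p = 9.89e-09), and the other chains C1qb (1.39) and C1qc (1.57) rose alongside it. All aged libraries lay above all young ones in C1qa. Cd46, a membrane inhibitor of complement, fell (-0.44). Of 10 perivascular and meningeal macrophage genes 3 rose and none fell. Of 26 lymphocyte markers listed, Trac and Ighm alone were abundant enough to test, and Ighm, the immunoglobulin M heavy chain, rose (0.96). The ages overlapped in Ighm, and aged library 1 was the highest aged library in both genes. Ighm kept its call without aged library 1 alone, and lost it without all 5 libraries high in Ttr.

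**Figure D2:**
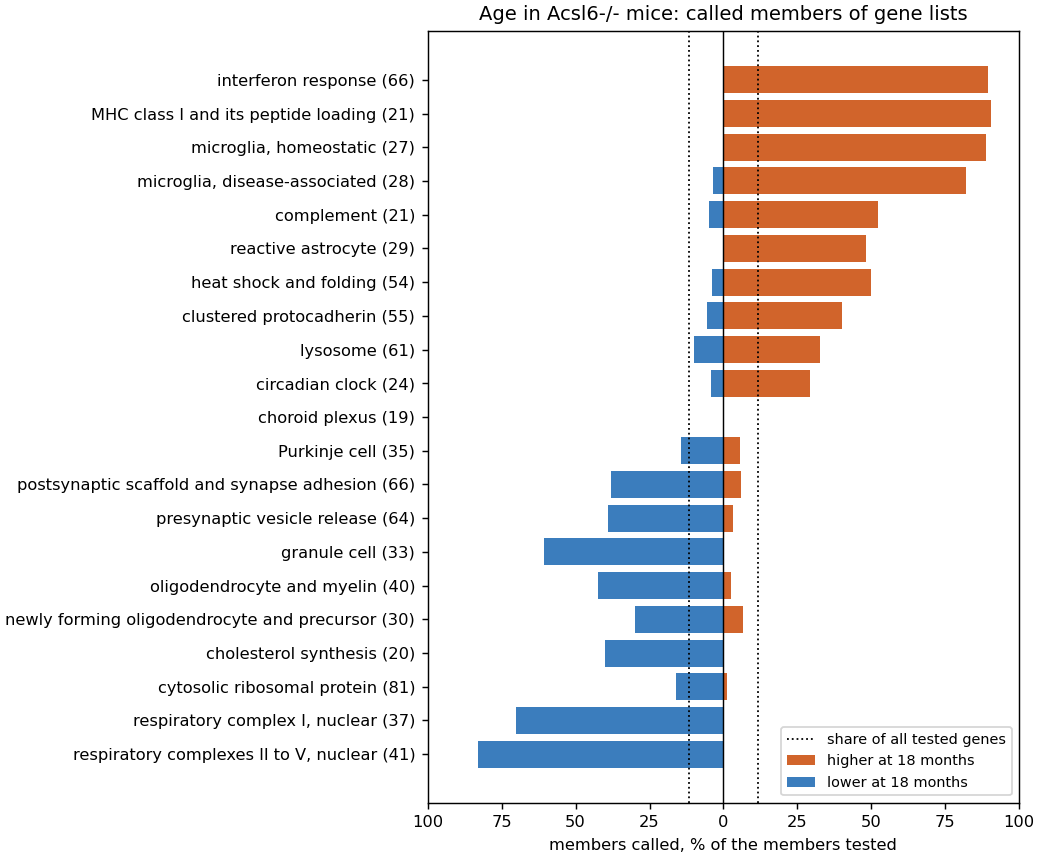
Share of tested members (percent) that rose (right) or fell (left) between 2 and 18 months in Acsl6-/- cerebellum in 21 gene lists, with the number of tested members in brackets. Dotted lines mark the share among all genes tested, 11.6% in each direction. Immune lists sit at the right end, respiratory chain and granule cell lists at the left end, and limma called no choroid plexus gene.

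Antigen presentation genes of MHC class I rose in 19 of 21 cases, and none fell, with a median of 0.93. B2m, the light chain shared by class I molecules, stood at 1062, 1202, 1355 and 1050.4 normalized counts at 2 months and 3224, 2584, 2172 and 2365 at 18 months, a log2 fold change of 1.14 (SE 0.09, limma adjusted p = 2.31e-07). Every aged library lay well above every young one. Tap2 (1.15), a subunit of the peptide transporter, and H2-K1 (1.33), a classical heavy chain, rose, as did the other classical heavy chain H2-D1 (0.40). Of 7 MHC class II genes 4 rose, with a median of 1.04, but aged library 1 was the highest in all 7. Cd74, the invariant chain, stood at 42.03, 64.8, 37.05 and 44.2 normalized counts at 2 months and 213, 85.8, 72.1 and 79.3 at 18 months, a log2 fold change of 1.12 (SE 0.29, limma adjusted p = 0.0079). Without aged library 1, which was also the library high in Ttr, 2 of the 7 were called and the median was 0.66.

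Interferon-induced genes rose with few exceptions. Of 66 tested, 59 rose and none fell, with a median of 1.29, and 46 had all aged libraries above all young ones. Irgm1, an immunity-related GTPase, stood at 98.7, 122, 135 and 103 normalized counts at 2 months and 572, 651, 240.2 and 393 at 18 months, a log2 fold change of 1.92 (SE 0.24, limma adjusted p = 2.02e-05). Ifit3, an antiviral protein that binds viral RNA, stood at 98.7, 127, 259 and 85.6 normalized counts at 2 months and 759, 1245, 369 and 513 at 18 months, a log2 fold change of 2.32 (SE 0.37, limma adjusted p = 0.000211). Gbp2, a guanylate-binding protein that acts on pathogen vacuoles, stood at 34.2, 43.9, 31.9 and 23.1 normalized counts at 2 months and 162, 193, 80.1 and 117 at 18 months, a log2 fold change of 1.98 (SE 0.25, limma adjusted p = 2.75e-05). The libraries differed within each age in a shared way: aged library 2 was the highest aged library in 41 of the 66 genes and aged library 1 in the other 25, aged library 3 was the lowest in 52, and young library 3 was the highest young library in 44. Summed over the list, the normalized counts were 13708, 14716, 16392 and 13805 in the young libraries and 27295, 29009, 18383 and 20118 in the aged ones. Herc6 (1.65), a ubiquitin-like ligase, and Irf1 (1.25), an interferon regulatory factor, were among the calls with the smallest p. Without aged library 1, 52 of the 66 were called.

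Promoters of these genes are shown because interferon signals reach them through a short sequence element. Each sequence covers 250 bases before to 50 bases after the annotated start, from RefSeq (GRCm38.p6), 5′ to 3′ on the strand of the gene, and capitals mark each match to the letters GAAA, any pair of bases and GAAA again, or to the reverse complement (TTTC, any pair of bases, TTTC). Ifit3 lies at chr19:34583279-34583578 (plus strand), Irgm1 at chr11:48871371-48871670 (minus strand) and Gbp2 at chr3:142620413-142620712 (plus strand).
Ifit3: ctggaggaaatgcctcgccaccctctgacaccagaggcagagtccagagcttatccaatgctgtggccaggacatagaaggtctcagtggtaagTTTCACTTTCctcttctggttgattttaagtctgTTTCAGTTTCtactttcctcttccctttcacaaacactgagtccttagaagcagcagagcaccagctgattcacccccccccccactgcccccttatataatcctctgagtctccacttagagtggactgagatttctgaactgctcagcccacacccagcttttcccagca
Irgm1: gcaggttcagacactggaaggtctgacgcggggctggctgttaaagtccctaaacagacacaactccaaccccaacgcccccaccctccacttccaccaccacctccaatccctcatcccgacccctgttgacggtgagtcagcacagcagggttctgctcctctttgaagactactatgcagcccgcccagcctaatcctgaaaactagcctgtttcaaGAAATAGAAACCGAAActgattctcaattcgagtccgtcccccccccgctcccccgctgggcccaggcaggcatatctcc
Gbp2: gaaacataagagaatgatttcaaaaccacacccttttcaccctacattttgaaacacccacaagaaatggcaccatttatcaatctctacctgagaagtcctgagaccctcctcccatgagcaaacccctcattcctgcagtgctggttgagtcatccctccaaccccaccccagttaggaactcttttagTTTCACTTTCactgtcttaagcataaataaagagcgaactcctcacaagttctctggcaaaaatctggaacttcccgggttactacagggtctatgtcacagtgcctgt
The Ifit3 window holds 2 separate matches, the Irgm1 window 2 overlapping matches, and the Gbp2 window 1 match. A promoter was found for 47 of the 66 genes, and 26 of these (55.3%) held at least 1 match on either strand. The share was 3.99% among 27025 genes and 3.44% among 32851 promoters of the same length. A match describes letters in the window and is not evidence of binding.

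Of 29 reactive astrocyte genes 14 rose and none fell, with a median of 0.38. Gfap, the intermediate filament of astrocytes, stood at 2782, 2675, 2292 and 1981 normalized counts at 2 months and 4939.9, 4799, 5988 and 4788 at 18 months, a log2 fold change of 1.08 (SE 0.10, limma adjusted p = 8.26e-07), and its highest library was aged library 3. Serpina3n, a secreted protease inhibitor, stood at 58.6, 56.5, 51.5 and 38.5 normalized counts at 2 months and 187, 125, 155 and 136 at 18 months, a log2 fold change of 1.54 (SE 0.14, limma adjusted p = 9.05e-07). Both genes had all aged libraries above all young ones. Of 34 Bergmann glia and astrocyte genes 4 rose (2 without young library 4) and 11 fell, Aqp4, the water channel, rising by 0.67 and Ndrg2, a cytoplasmic astrocyte marker, moving by -0.27. Of 41 endothelial and mural genes 10 rose and 3 fell, and of 17 ependymal genes 3 rose and 1 fell. Of 19 choroid plexus genes limma called none, with 1 at an unadjusted p under 0.05, and edgeR and DESeq2 on recovered reads each called 1. Their median was 0.95, and 0.05 without aged library 1. That library was the highest in 17 of them, at a summed level of 29632 against 5226 to 6158 in the other aged libraries and 4655 to 6324 in the young ones.

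Granule cell genes fell and none rose. Of 33 tested, 20 fell, with a median of -0.24. Slc17a7, the vesicular glutamate transporter VGLUT1 of granule cell terminals, stood at 13295, 12228, 13640.0 and 13866 normalized counts at 2 months and 8651, 8139.5, 8262 and 8981 at 18 months, a log2 fold change of -0.64 (SE 0.04, limma adjusted p = 2.34e-08). Grm4, a presynaptic metabotropic glutamate receptor, stood at 12309, 13449, 13569 and 13930.0 normalized counts at 2 months and 10136, 8554, 9546 and 8973 at 18 months, a log2 fold change of -0.52 (SE 0.07, limma adjusted p = 5.85e-05). The ages did not overlap in either gene. Grin2c (-0.46), Gabra6 (-0.33) and Cbln3 (-0.31), which encode a glutamate receptor subunit, a GABA receptor subunit and a synaptic organizer particular to these cells, fell too. Purkinje cell genes were mostly below the threshold, with 2 of 35 higher and 5 lower: Itpr1, the calcium-release channel, rose by 0.19, Gng13, a G protein subunit, and Pcp4, a calmodulin regulator, moved by -0.53 and -0.33, and the defining markers Pcp2 (-0.09) and Calb1 (-0.05) were not called. Of 23 interneuron genes 2 rose and 2 fell, and of 17 genes of brainstem and deep nuclei neurons 1 rose and 1 fell.

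Synaptic genes fell more often than they rose. Of 64 presynaptic genes 25 fell and 2 rose, and of 66 postsynaptic and adhesion genes 25 fell and 4 rose. Rims3, an active zone protein, stood at 7083, 6994, 6791 and 6894 normalized counts at 2 months and 3534, 3478, 3479 and 4108 at 18 months, a log2 fold change of -0.93 (SE 0.05, limma adjusted p = 5.94e-09), and the ages were far apart. Dnm1, the neuronal dynamin of vesicle retrieval, fell (-0.30), as did Nrxn2 (-0.41), a presynaptic adhesion receptor, whereas Homer2, a postsynaptic scaffold, stood at 546, 485, 525 and 504 normalized counts at 2 months and 754, 976, 719.6 and 992 at 18 months and rose (0.73). Of 49 glutamate and GABA receptor genes 3 rose and 14 fell, and of 57 potassium channel genes 6 rose and 17 fell, Kcna2, a Shaker-type channel, among them (-0.38). Of 44 genes of sodium, calcium and HCN channels and of intracellular calcium release, 11 rose and 10 fell. Itpr3, an intracellular calcium channel, stood at 666, 609, 765 and 708 normalized counts at 2 months and 1293, 1114, 1844 and 1600.5 at 18 months, a log2 fold change of 1.07 (SE 0.12, limma adjusted p = 8.23e-06). Clustered protocadherins, which give neurons their surface identity and sit in tandem with similar sequences, rose in 22 of 55 cases and fell in 3, with a median of 0.27. Pcdhgb6 (0.64) and Pcdhb14 (0.64) rose and Pcdhgc3 fell (-0.21).

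Oligodendrocyte and myelin genes fell in 17 of 40 cases and rose in 1, with a median of -0.23. Opalin, a membrane protein of mature oligodendrocytes, stood at 174, 256, 173 and 151 normalized counts at 2 months and 81.2, 61.3, 84.5 and 85.6 at 18 months, a log2 fold change of -1.24 (SE 0.18, limma adjusted p = 0.000103). Each aged library was below each young one. Mbp (-0.42), Mog (-0.69), Mal (-0.64), Tspan2 (-0.50) and Cldn11 (-0.80), all structural or membrane components of myelin, fell too, and Il33, a nuclear cytokine of these cells, rose (0.54). Of 30 genes of newly forming oligodendrocytes and their precursors 9 fell and 2 rose. Gpr17, a receptor of cells about to differentiate, stood at 475, 487, 431 and 487 normalized counts at 2 months and 241, 228, 249 and 185 at 18 months, a log2 fold change of -1.06 (SE 0.09, limma adjusted p = 2.03e-07), and its groups did not overlap. Of 44 genes of cell division and immature neurons 12 fell and 5 rose, with 3 higher without young library 3 or aged library 4.

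Nuclear genes of the respiratory chain fell by small amounts in most cases. Of 37 complex I genes 26 fell and none rose, with a median of -0.18, and of 41 genes of complexes II to V 34 fell and none rose, with a median of -0.20. Ndufa4, a small subunit, stood at 3335, 3351, 3132 and 3271 normalized counts at 2 months and 2748, 2923, 2519 and 2552 at 18 months, a log2 fold change of -0.29 (SE 0.04, limma adjusted p = 0.000102). Cox6a1, a subunit of cytochrome c oxidase, stood at 3154, 3162, 2974 and 2872 normalized counts at 2 months and 2549, 2319, 2374 and 2349 at 18 months, a log2 fold change of -0.34 (SE 0.04, limma adjusted p = 1.66e-05). Atp5o, a stalk subunit of ATP synthase, stood at 2699, 2588, 2613 and 2601 normalized counts at 2 months and 2107, 2043, 1999 and 2154 at 18 months, a log2 fold change of -0.34 (SE 0.04, limma adjusted p = 1.02e-05). All 3 genes separated the ages completely. Of 13 genes on mitochondrial DNA 6 fell, among them mt-Cytb (-0.26), and mt-Nd3 rose (0.48), and the 6 became 3 without young library 4 and 1 with quantile normalization. Of 30 genes of the tricarboxylic acid cycle and pyruvate entry 13 fell and 3 rose. Of 78 mitochondrial ribosomal genes 13 fell (16.7%) and of 31 proteasome genes 6 fell (19.4%), where 11.6% of all genes fell. Neither of these lists held a gene that rose. Of 81 cytosolic ribosomal genes 13 fell, Rpl29 by 0.30 on the log2 scale with 1712, 1834, 1792 and 1855 normalized counts at 2 months and 1506, 1326, 1537 and 1494 at 18 months, while Rpl10 rose (0.20), and their median was -0.04. The 13 became 6 without young or aged library 2, 8 without young or aged library 4, 19 without aged library 1, 20 without the libraries high in Ttr, 5 with quantile normalization and 7 with the length trend removed, and the 13 mitochondrial ribosomal genes became 6 without aged library 2 and 7 without young library 1. By transcript length over all genes the median was -0.02 under 1000 bases, -0.04 from 1000 to 2000, -0.01 from 2000 to 4000 and 0.03 above. With that length trend removed, 31 of the 41 genes of complexes II to V fell.

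Chaperone genes rose in 27 of 54 cases and fell in 2, with a median of 0.16. Hspa2, a member of the HSP70 family, stood at 293, 328, 332 and 325 normalized counts at 2 months and 538, 483, 480.3 and 525 at 18 months, a log2 fold change of 0.66 (SE 0.07, limma adjusted p = 6.15e-06). Pdia4, a disulfide isomerase of the endoplasmic reticulum, stood at 563, 556, 533 and 577 normalized counts at 2 months and 933, 913, 969 and 788 at 18 months, a log2 fold change of 0.69 (SE 0.10, limma adjusted p = 6.18e-05). No aged value fell within the young range in either gene. Hyou1 (0.39), also of the endoplasmic reticulum, and the cytosolic Hsph1 (0.30) rose, whereas Hspb6, a small heat shock protein, fell (-0.39). A heat shock element was searched on both strands as GAA, TTC and GAA with any pair of bases between them. It was found in the promoters of 5 of 43 listed genes (11.6%), against 0.662% of 27025 genes and 0.560% of 11956 tested genes. Among the 5 are Hspd1 and Hspe1, whose windows overlap on opposite strands and hold the same stretch. Hsph1 is the only gene named in this paragraph for its change that had a match. Such a match is not evidence of binding. Of 38 genes of the ATF4 response to stress 8 rose and 2 fell, and 4 rose without young or aged library 1.

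Lipid genes are of interest because ACSL6 is an acyl-CoA synthetase. The counts below stand beside the 11.6% of all genes that rose and the 11.6% that fell. Of 20 cholesterol synthesis genes 8 fell and none rose, with a median of -0.23. Sqle, squalene epoxidase, stood at 1169, 1128, 878 and 781 normalized counts at 2 months and 638, 488, 620.2 and 626 at 18 months, a log2 fold change of -0.72 (SE 0.11, limma adjusted p = 0.000153), and its aged libraries all lay below the young ones. Hmgcs1 (-0.40), Msmo1 (-0.48) and Dhcr7 (-0.35), enzymes of the same route, fell too. The count depended on single libraries: it was 4 without young library 1, 5 without young library 2 or 3 or aged library 1 or 2, and 13 without young library 4. Of 25 genes of sterol handling 6 rose and 2 fell, including Apoe (0.30), the lipoprotein of glia, and Abca1 (0.34), the cholesterol exporter, both of which rose. Of 27 genes of fatty acid synthesis, desaturation and elongation 2 rose and 6 fell (3 without young library 3), Elovl5, an elongase of polyunsaturated fatty acids, rising by 0.18 and Scd1, a desaturase, moving by -0.35. Of 37 genes of acyl-CoA synthesis and fatty acid uptake 2 rose and 11 fell, Mfsd2a, the transporter of DHA-lysophosphatidylcholine at the blood-brain barrier, among the latter (-0.67). Of 21 phospholipase A2 genes 4 rose and 4 fell, and of 43 genes of eicosanoid enzymes 9 rose and 5 fell, with 5 higher without aged library 1 or young library 4. Gpx4, which reduces lipid peroxides, stood at 2835, 2883, 2693 and 2746 normalized counts at 2 months and 2586, 2164, 2471 and 2455 at 18 months, a log2 fold change of -0.21 (SE 0.05, limma adjusted p = 0.00464). Pon2, a paraoxonase, stood at 876, 894, 878 and 972 normalized counts at 2 months and 715, 734, 754 and 733 at 18 months, a log2 fold change of -0.30 (SE 0.06, limma adjusted p = 0.00231). Both genes fell without overlap of the ages. Of 42 antioxidant genes 5 rose and 8 fell, among them Nfe2l2 (0.68), the gene of the regulator NRF2, and Tfrc, the transferrin receptor, which stood at 3012, 3036, 3154 and 3289.8 normalized counts at 2 months and 1619, 1692, 1555 and 1620.4 at 18 months, a log2 fold change of -0.94 (SE 0.06, limma adjusted p = 1.78e-08).

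Among genes that follow the time of day, hormones or neuronal activity most did not pass the test, but the called shares exceeded those of all genes. Of clock genes 29.2% rose, of glucocorticoid and fasting genes 39.3% fell, and of immediate early genes 21.9% fell. Over all genes 11.6% rose and 11.6% fell. Of 24 clock genes 7 rose and 1 fell, where 23.2% of all genes were called. Per2, a repressor of the clock, stood at 685, 554, 1000.3 and 889.8 normalized counts at 2 months and 1377, 1921, 1719.9 and 2401 at 18 months, a log2 fold change of 1.25 (SE 0.16, limma adjusted p = 3.42e-05). Arntl, which encodes the activator BMAL1, stood at 1399.7, 1301, 1218 and 1368 normalized counts at 2 months and 1013, 1035, 929.9 and 916 at 18 months, a log2 fold change of -0.44 (SE 0.07, limma adjusted p = 0.000212). The ages did not overlap in either gene, and the share of the collection hour in these values was not tested. Of 28 genes of the glucocorticoid and fasting response 2 rose and 11 fell, with a median of -0.29. Mt1, a metallothionein, stood at 6615, 6235, 7744 and 8461 normalized counts at 2 months and 3957, 3222, 4116 and 3854 at 18 months, a log2 fold change of -0.93 (SE 0.09, limma adjusted p = 8.17e-07). Cdkn1a, the cell cycle inhibitor p21, stood at 1407, 853, 1657 and 2282 normalized counts at 2 months and 589, 708, 635 and 663 at 18 months, a log2 fold change of -1.17 (SE 0.21, limma adjusted p = 0.000567), and its young libraries were widely spread. Of 32 immediate early genes 3 rose and 7 fell, Egr1 by 0.56 on the log2 scale. Of 34 RNA-binding and cold-inducible genes 6 rose and 2 fell. Malat1, a nuclear noncoding RNA, stood at 32546, 21337, 34898 and 25317 normalized counts at 2 months and 49951, 53940.0, 49020.0 and 48066 at 18 months, a log2 fold change of 0.84 (SE 0.14, limma adjusted p = 0.000265), and Neat1, which builds paraspeckles, rose by 0.69.

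Age effects in controls, from libraries not shared with the Acsl6-/- comparison, ran largely in the same direction. In controls 31.3% of genes were called, 2610 higher (15.3%) and 2723 lower (16%). Of these, 2785 genes were called in both genotypes, which is 70.4% of the Acsl6-/- calls and 52.2% of the control calls, and 2776 of them moved the same way. Across genes, which are not independent replicates, the log2 fold changes of the genotypes had a Pearson's r of 0.69. A further 1172 genes were called in Acsl6-/- mice alone, but a call in one genotype does not show a difference between them. The difference itself passed the adjusted threshold in 3 genes (0.0176%), 1 with the higher log2 fold change in Acsl6-/- (0.00587%) and 2 with the lower (0.0117%). An unadjusted p under 0.05 was reached by 1707 genes (10%).

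**Figure D3:**
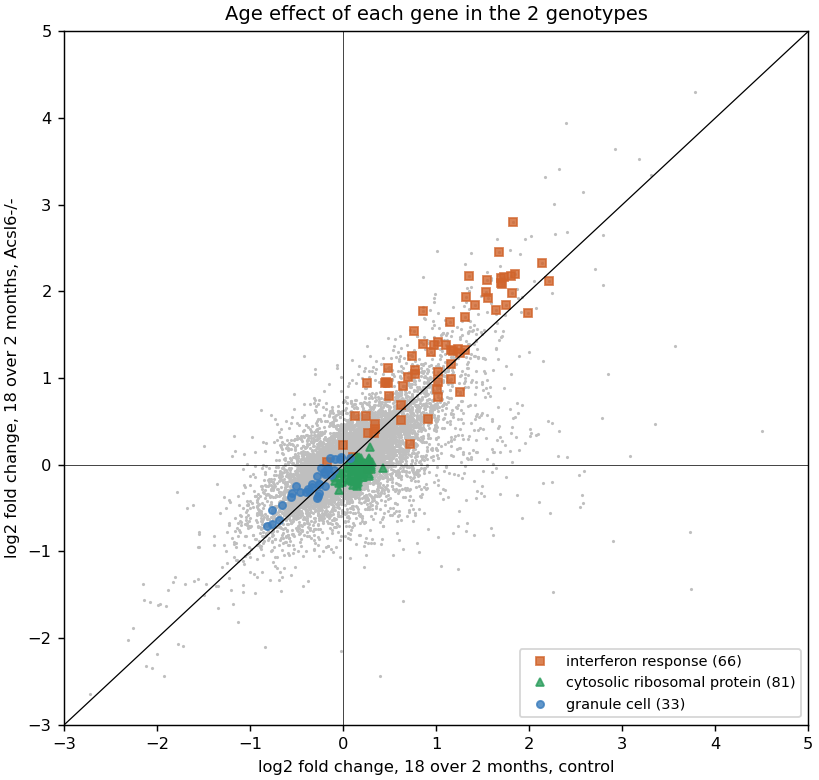
Log2 fold change of 18 over 2 months in Acsl6-/- mice (vertical axis) against that in control mice (horizontal axis), 1 point per gene, 17042 genes in grey, with the line of equal change. Interferon response genes (squares, median 1.29 in Acsl6-/- and 1.02 in control) and granule cell genes (circles, medians -0.24 and -0.27) spread to the upper right and lower left, and cytosolic ribosomal genes (triangles, medians -0.04 and 0.17) lie below it.

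The genes called for the difference were Klf2, Utp14b and Plcb1. Klf2 (chr8:72319033-72321656), a transcription factor of endothelium and resting lymphocytes, averaged 213 ± 44.3 (SD, n = 4) normalized counts at 2 months and 256 ± 28.5 at 18 months in Acsl6-/- mice, against 117 ± 9.43 and 316 ± 34.1 in controls. Its young Acsl6-/- libraries were thus high, the log2 fold change was 0.28 in Acsl6-/- and 1.42 in controls, and the difference was -1.14 (unadjusted p = 5.18e-06, adjusted p = 0.0299). Utp14b (chr1:78658038-78671512), a ribosome biogenesis factor, averaged 385 ± 20.1 and 413 ± 46.4 in Acsl6-/- and 248 ± 22.9 and 486 ± 47.98 in controls, a difference of -0.87 (unadjusted p = 1.74e-06, adjusted p = 0.0296). Utp14b lies within Acsl3, another acyl-CoA synthetase gene, on the same strand, so its reads are uncertain, and Acsl3 itself fell in Acsl6-/- (-0.17). Plcb1 (chr2:134786067-135475258), a phospholipase C that couples receptors to calcium release, averaged 1942 ± 60.5 and 2175 ± 139.7 in Acsl6-/- and 2541 ± 72.5 and 2156 ± 76.8 in controls, a rise of 0.16 against a fall in controls (-0.24) and a difference of 0.40 (unadjusted p = 5.27e-06, adjusted p = 0.0299). An antisense gene overlaps Plcb1. Each of the 3 calls was lost without certain libraries: of the 16 ways of leaving 1 out, Klf2 lost the call in 12, Plcb1 in 12 and Utp14b in 8, with highest adjusted limma p of 0.120, 0.120 and 0.0972. Clu, which encodes the chaperone clusterin, was just above the threshold with a difference of -0.75 (unadjusted p = 1.37e-05, adjusted p = 0.0586), rising by 0.68 in controls against -0.07 in Acsl6-/-.

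**Figure D4:**
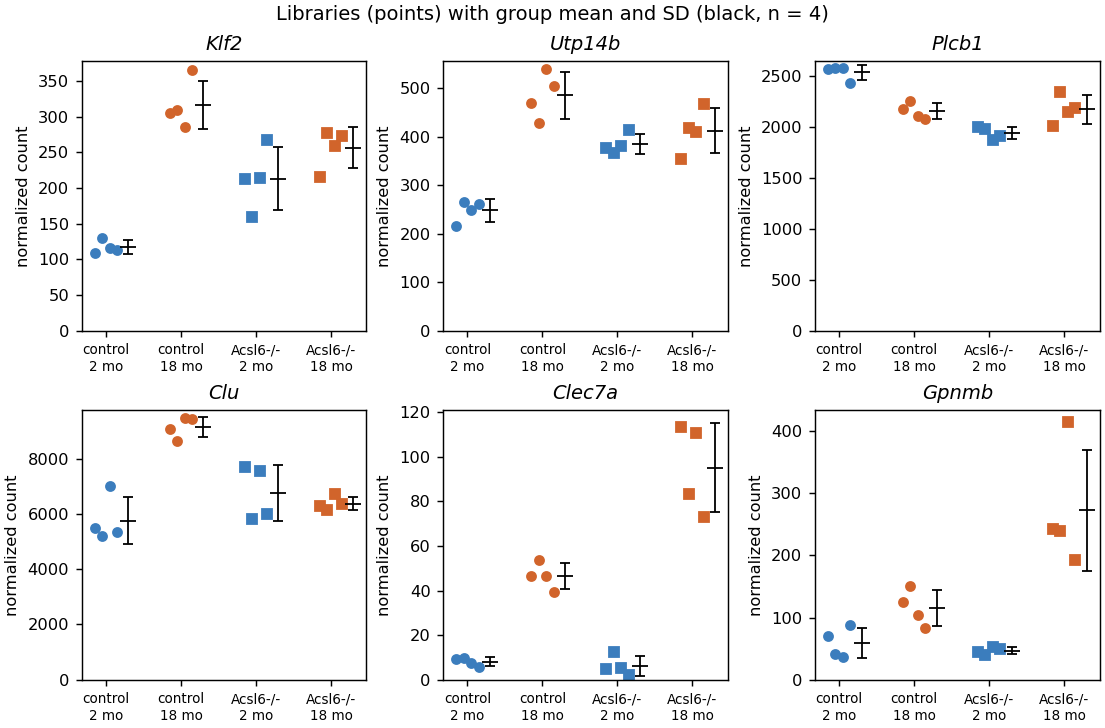
Normalized counts per library at 2 and 18 months in control and Acsl6-/- cerebellum for Klf2, Utp14b, Plcb1, Clu, Clec7a and Gpnmb, with group means and SD (n = 4). Klf2, Utp14b and Clu differ with age mainly in controls, Plcb1 moves in opposite directions, and Clec7a and Gpnmb reach their highest values in aged Acsl6-/- libraries although their adjusted p for the difference was 0.266 and 0.177.

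Lists were compared between genotypes by the members with an unadjusted p under 0.05 for the difference, which 4.79% of all genes reached with the higher log2 fold change in Acsl6-/- and 5.23% with the lower. No member of any list except Klf2 and Plcb1 passed the adjusted test, so these counts describe a direction only. In the disease-associated microglial list 9 of 28 reached it with the higher log2 fold change in Acsl6-/- and 1 with the lower. The medians were 1.44 in Acsl6-/- and 0.82 in controls. Gpnmb had a log2 fold change of 2.47 against 1.0046, a difference of 1.46 (unadjusted p = 0.000819, adjusted p = 0.177), and Clec7a of 3.94 against 2.40, a difference of 1.54 (unadjusted p = 0.00395, adjusted p = 0.266). Without the 5 libraries high in Ttr, of which 1 is an aged Acsl6-/- library, the count was 3 of 28. The homeostatic list had 1 of 27 higher, with medians of 1.02 and 0.91, and the interferon list 4 of 66 higher, a count that ran from 1 (without aged Acsl6-/- library 1 or 2, among others) to 11 without aged control library 4 and 13 without aged Acsl6-/- library 3.

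Many cytosolic ribosomal genes rose in controls, and few passed the test in Acsl6-/- mice. In controls 48 of 81 rose and none fell, with a median of 0.17, whereas in Acsl6-/- 1 rose and 13 fell. For the difference, 59 of 81 had an unadjusted p under 0.05, all with the lower log2 fold change in Acsl6-/-. The median difference was -0.22, and the count stayed between 55 and 66 when single libraries were left out. It was 67 without the libraries high in Ttr and 56 with the length trend removed. Rpl29 had a log2 fold change of -0.30 against -0.04 in controls, a difference of -0.25 (unadjusted p = 0.000974, adjusted p = 0.178). Complex I genes had 14 of 37 lower for the difference, with medians of -0.18 in Acsl6-/- and -0.06 in controls, and complexes II to V 15 of 41, which became 7 with the length trend removed and 9 without young Acsl6-/- library 1. Ndufa2, an accessory subunit of complex I, stood at 576, 568, 537 and 572 normalized counts at 2 months and 475, 394, 389.7 and 449 at 18 months in Acsl6-/-, a fall against -0.02 in controls and a difference of -0.38 (unadjusted p = 0.000327, adjusted p = 0.164).

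Myelin, cholesterol and immediate early genes leaned the same way, and the myelin and cholesterol counts moved with single libraries. For myelin the median summed normalized counts were 166980 (young) and 127550 (aged) in Acsl6-/-, and 138960 and 144330 in controls. For cholesterol they were 17374 and 14044 against 13474 and 13199, and for immediate early genes 23471 and 18552 against 18440 and 21496. In each list the young Acsl6-/- median was above the young control one. The aged cholesterol median was not below that of controls. In the myelin list 12 of 40 had the lower log2 fold change in Acsl6-/-, with medians of -0.23 and -0.03. The count was 6 without aged control library 4, 7 without aged Acsl6-/- library 2 and 21 without young Acsl6-/- library 3. It was 24 without aged control library 2, and 4 without the libraries high in Ttr. Mbp had a log2 fold change of -0.42 against -0.03 in controls, a difference of -0.40 (unadjusted p = 0.0203, adjusted p = 0.402). In the cholesterol list 7 of 20 were lower, 3 without young Acsl6-/- library 1 or 2, 12 without young Acsl6-/- library 4, 4 without young control library 4, and 1 without the libraries high in Ttr. Among the immediate early genes 12 of 32 had the lower log2 fold change in Acsl6-/-. That count was 11 to 15 when single libraries were left out, and 2 when all libraries high in Ttr were left out together. Granule cell genes went the other way, with 7 of 33 at the higher log2 fold change in Acsl6-/- and none at the lower. The 7 became 2 without aged Acsl6-/- library 3 or young control library 1. Gfap rose by 1.08 in Acsl6-/- and 1.51 in controls, a difference of -0.43 (unadjusted p = 0.00682, adjusted p = 0.307). Its mean in Acsl6-/- was 2432 ± 367 (SD, n = 4) normalized counts in young and 5129 ± 577 in aged libraries. In controls the young and aged means were 1720 ± 221 and 4884 ± 237. The smaller rise in Acsl6-/- thus started from a higher young mean, and the aged mean was not below that of controls.

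**Figure D5:**
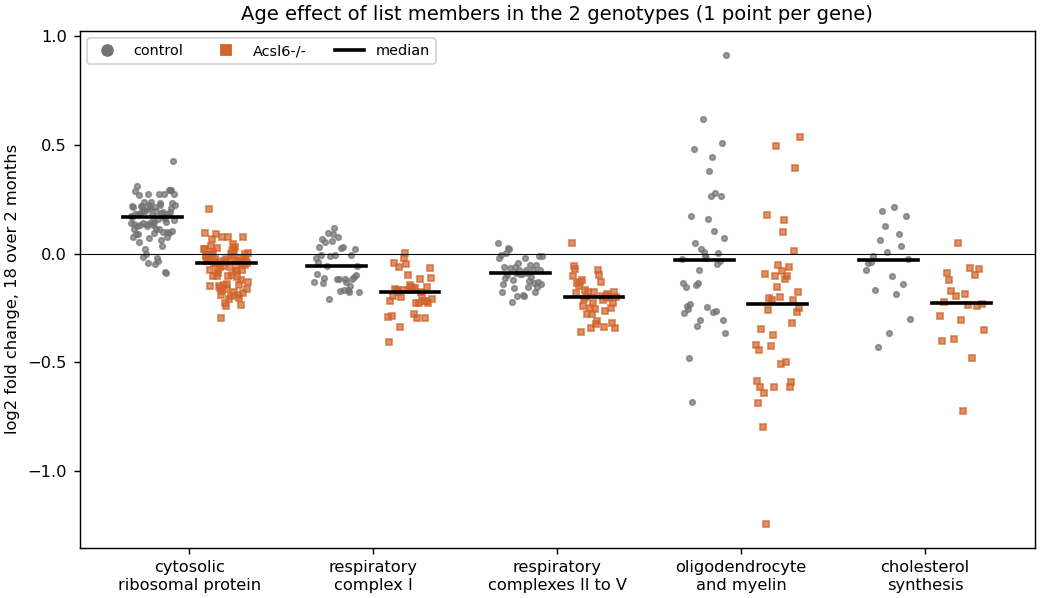
Log2 fold change of 18 over 2 months for each member of 5 gene lists in control and Acsl6-/- cerebellum, 1 point per gene. The median of the 81 cytosolic ribosomal genes was 0.17 in controls and -0.04 in Acsl6-/-, that of the 37 complex I genes -0.06 and -0.18, and that of the 40 myelin genes -0.03 and -0.23.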

How the data were processed

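Poly(A) RNA-Seq gave 4 cerebellum libraries from young and 4 from aged mice per genotype. The deposited signal is a normalized count per gene: the authors used Trimmomatic 0.36 for trimming and STAR 2.5.2b for alignment against GRCm38, assigned reads to gene exons, and scaled every library by its size factor. The table holds 17074 genes, the lowest mean is 9.31, and the strand of counting is not given in the sources used here. Size factors put libraries of unequal depth on 1 scale and leave low genes with more counting error. Whole reads (within 0.001 of a whole number) were recovered in 14 of 16 libraries, and intervals were not computed from them. In the libraries described, 18120742 to 23119179 reads were assigned.

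The log2 of the normalized count + 1 was fitted for 17042 genes (mean of 10 or more over all libraries) in 1 model of 4 groups, with limma 3.58.1 in R 4.3.3 (empirical Bayes with an intensity trend, Benjamini-Hochberg adjustment over all genes, threshold 0.05). Contrasts were age in Acsl6-/- mice, age in control mice and their difference. Single summed values were compared with a two-sided exact permutation test. On simulated data with 17042 genes, the age comparison in Acsl6-/- mice was run with 50 genes changed at each of 4 folds. It recovered 27, 27, 42 and 50 of them at 1.3, 1.5, 2 and 4 fold, with 13 false calls. No other gene was changed and depth was equal, whereas 3957 genes were called in the data. Recovery in the data can therefore differ. Alternatives were a pseudocount of 5, a minimum mean of 50 or none, quantile and TMM scaling, array weights, a replicate block, fits on 2 groups, edgeR 4.0.16 and DESeq2 1.42.0 on recovered reads, and leaving out each library. Removing the libraries with over 5000 normalized counts of Ttr, and removing a trend with transcript length (lowess, span 0.3), were added after seeing the data.

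Named genes were the 12 called genes in each direction that changed most, with no overlap of the ages. They had 50 or more normalized counts on average in the age group with the higher mean. Unnamed gene models and annotated pseudogenes were left out, Clec7a among them. Further named genes were up to 4 per direction and list with the smallest p, defining markers of the lists, Acsl6, Gpx4, Pon2, Gfap and Aif1, genes called for the difference and up to 6 per direction with its smallest p. The members and the gene lists were chosen with earlier results of these data known. Gene positions are from the GRCm38 annotation, which matched 17026 IDs, and promoters are from RefSeq (GRCm38.p6). Some members of the lists are counted but not reported here by name.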

Additional observations from a re-analysis of the deposited data

Results flagged for a closer look

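Among 82 groups of 4 libraries tested for a single distant value, 5 held one, and chance alone gives about 1 in 20. C3 was at 297 normalized counts in aged Acsl6-/- library 1, above the other aged libraries, and H2-Q7 was at 186 in the same library. Iws1, a factor of transcription elongation, was at 1725 in aged Acsl6-/- library 1. Lyz2 was at 113 in young Acsl6-/- library 2, and Gfap at 5988 in aged Acsl6-/- library 3. Aged library 1 is also the library with 12123 normalized counts of Ttr, and the part of choroid plexus RNA in these values was not tested.

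The age effect differed between genotypes by the limma interaction test in 3 genes: Klf2 by -1.14 on the log2 scale, Utp14b by -0.87 and Plcb1 by 0.40, in each case Acsl6-/- minus control.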

How the results depend on the processing

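The counts for age in Acsl6-/- mice stayed within 1.5 times of 1981 higher and 1976 lower under all 28 alternatives, ranging from 1583 to 2044 higher and from 1569 to 2014 lower when single libraries were left out. The replicate block gave 1838 higher and 1837 lower. Same-numbered young and aged Acsl6-/- libraries correlated at 0.07, -0.13, 0.10 and 0.01 in their deviations, and 1 of 4 was most like its own number. With so few libraries this cannot show whether the numbers pair them. For age in control mice, 2610 genes higher and 2723 lower became 1577 and 1773 with DESeq2, 1681 and 1635 with edgeR, both of which lack 2 aged control libraries, and 1350 and 1423 without the libraries high in Ttr. For the difference of the age effects, 1 gene higher and 2 lower became 18 and 29 with DESeq2, 2 and 4 with array weights, 0 and 0 with edgeR (1409 genes at an unadjusted p under 0.05), 0 and 1 with the length trend removed, 0 and 0 without the libraries high in Ttr, and 2 higher with quantile normalization. Leaving out single libraries gave 0 to 7 higher and 0 to 4 lower. The cause was not tested. No called value changed sign. Medians of lists with few or no calls did: in controls the choroid plexus median went from 0.55 to -1.40 with DESeq2 and -1.41 with edgeR, and in Acsl6-/- mice the median ran from -0.04 to 0.10 for ATF4 genes and from -0.34 to 0.47 for ependymal genes when single libraries were left out. Of 300 named gene results, 245 kept their call under every alternative, and all 24 genes with the largest changes did, at adjusted limma p up to 0.0053. Depth limits low genes such as Clec7a and Aif1, whose young libraries held few counts.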
